A study of Mus musculus with 16 samples.

Results

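The ventricular transcriptome of female (XX) C57BL/6 wildtype mice was compared between 4 samples from mice with adenine-induced chronic kidney disease (CKD) and 4 control samples, which are 8 of the 16 libraries of the study. The members were taken from the treatment and sex labels. Female CKD mice received, from 8 weeks of age, chow with 0.25% adenine in alternation with standard chow for 6 weeks, a schedule the labels call the high-dose regimen, with a blood urea nitrogen goal of 40 to 70 mg/dL. Female controls received standard chow for the same 6 weeks. All mice were wildtype from Jackson Laboratories, and the labels do not say whether a library held 1 animal or several. If replicates do not come from separate animals, the p-values measure only the spread between these samples. The other 8 libraries are the male mice of the same design, used here only where the sexes are compared. The series title names pro-arrhythmic remodelling, and the comparison asks which ventricular transcripts differed with CKD in females.

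Adenine in the diet is oxidised to a poorly soluble product that precipitates in kidney tubules and damages them, so the heart is exposed to kidney failure without heart surgery or a genetic lesion. A ventricle is by RNA mass mostly cardiomyocytes, with endothelial cells, fibroblasts, pericytes and resident macrophages between them. Fibroblasts make the collagen network, whose chains must be hydroxylated and folded in the endoplasmic reticulum before secretion. Cells also adjust RNA-binding proteins of the cold-inducible family and heat shock chaperones to temperature and protein-folding load, in opposite directions when temperature changes.

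Libraries are named by group and replicate. Replicate numbers follow the order of the records and pair nothing. Totals were 10203707 to 13353942 counts, and 15648 genes had enough counts to be tested. Xist had 4401 to 8957 counts and 4 Y-linked genes together 5 to 12 counts in each of the 8 libraries, which matches the female label. The 10 ventricular cardiomyocyte markers summed to 38691 to 48925 CPM (counts scaled to a common library total) in CKD and 40267 to 44579 CPM in control. The lung marker Scgb1a1 was at 0 in all 8 libraries, and the 5 lung markers summed to 7.67 CPM in female_CKD 4 against 0.0848 to 0.519 CPM in the other libraries. Libraries numbered 3 to 6 by the submitters (female_CKD 1 and 2, female_control 1 and 2) have a factor in the fit, balanced over the arms. The Spearman correlation of each gene's deviation with GC content, over genes, was -0.37, -0.22, -0.11 and 0.35 in female_CKD 1 to 4 and 0.15, -0.37, 0.32 and 0.37 in female_control 1 to 4. Within each arm it was lower in both libraries of that set than in the other libraries, but its sign differed within the set. Library female_control 2 stood apart: 843 genes lay more than 0.5 log2 units outside the range of the other 7 libraries, against 81 to 306 genes for each of the others. Exact two-sided permutation tests of 5 library measures between the arms gave p = 0.4 to p = 0.914, where the smallest possible is 0.0286. These tests shuffled all 8 libraries without regard to the library sets, so a difference between the arms within the sets was not tested. The mean GC correlation was -0.09 in CKD and 0.12 in control.

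Across the 15648 genes, 9 passed an adjusted p of 0.05 by edgeR's quasi-likelihood test with Benjamini-Hochberg adjustment, which is 0.0575% of those tested. Higher in CKD were 5 genes (0.032%): the cold-inducible RNA-binding gene Rbm3, its processed pseudogene Rbm3-ps, Tfdp2, Fmo2 and Aqp4. Lower were 4 genes (0.0256%): the collagen chaperone gene Serpinh1, the coenzyme A family gene Dcakd, the filamin partner Rflnb and the tubulin gene Tubb2a. Log2 fold changes were 0.84 to 1.18 among the higher genes and -1.24 to -0.77 among the lower. GC content of the transcripts was 44.1 to 47.4% in Tfdp2, Fmo2, Rbm3 and Aqp4 and 52.5% in Rbm3-ps. In the 4 lower genes it was 50.2 to 57.3%. With GC and length trends removed and the factor kept, a setting chosen after seeing the data, all 9 passed. With those trends removed and no factor, 0 genes passed in either direction. In each of the 9 genes every CKD library lay on the same side of every control library. The choice of these genes by p in the same libraries in part fixes that separation. Over all genes the arms did not overlap in 3.36% that were higher and 3.95% that were lower. The calls rest on the factor for libraries 3 to 6: without it, 0 genes passed in either direction by the same test, with 720 higher and 1149 lower genes at an unadjusted p under 0.05. With a finer block of 3 strata of library numbers (3 to 6, 10 and 11, 15 and 16), 0 genes passed as well, with 1098 higher and 1952 lower at an unadjusted p under 0.05. Without female_control 2, 53 genes were higher and 127 lower, and all 9 were among them. Without female_CKD 4, 9 were higher and 31 lower. Without female_CKD 1, without female_CKD 2 or without female_control 3, 0 genes passed, and 1 gene passed without each of female_CKD 3 (Cirbp), female_control 1 (Serpinh1) and female_control 4 (Fmo2). DESeq2 called 165 higher and 242 lower and limma-voom 50 and 120, again with all 9 included.

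At an unadjusted p under 0.05, 965 genes (6.17%) were higher and 1925 (12.3%) lower, against 782.4 genes in all that chance alone would give at that threshold. The direction of that split depends on the scaling. RLE scaling gave 1236 higher and 1627 lower, upper-quartile scaling 1569 and 1349, leaving out mitochondrially encoded genes 1480 and 1395, and removing GC and length trends with the factor kept 1589 and 1262. The median log2 fold change of all genes was -0.05 with TMM scaling and 0.01 with upper-quartile scaling, a shift under 0.1. Positive estimates made up 42.1% of the genes and negative ones 57.9%. Groups did not overlap in 525 genes that were higher (3.36%) and in 618 that were lower (3.95%). These shares are the background for the counts of gene groups below. The gene lists were chosen with earlier results of these data known, so that choice can in part fix their medians and directions.

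**Figure D1:**
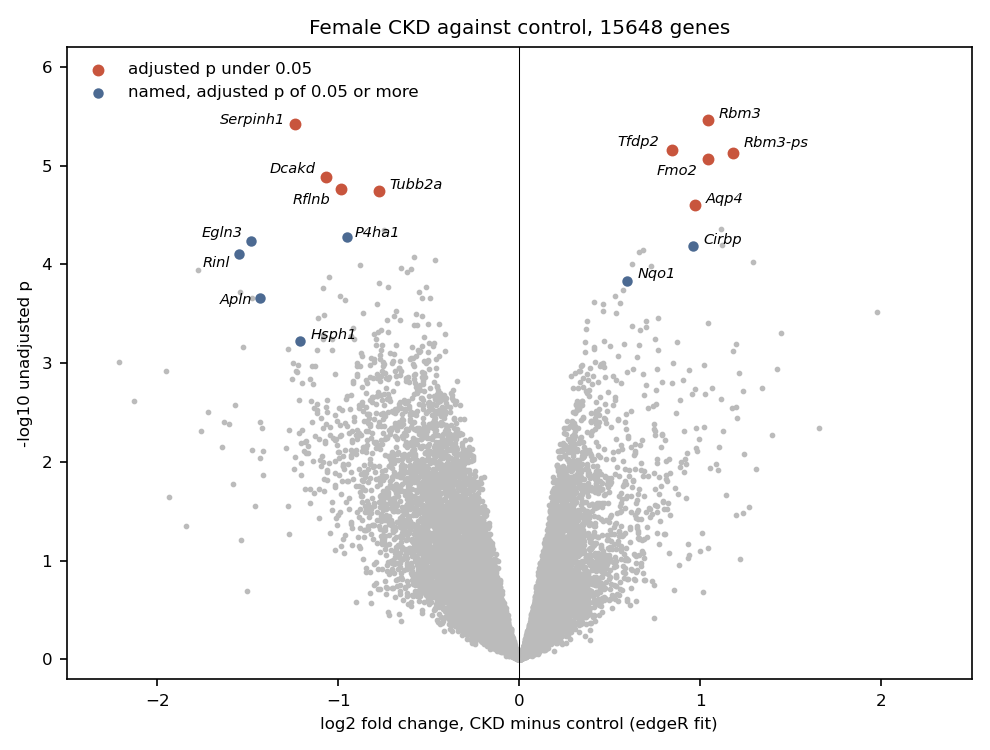
Log2 fold change of CKD against control (x axis) and minus log10 of the unadjusted p (y axis) for 15648 genes in female ventricles, from edgeR's quasi-likelihood test. The 9 red points passed the adjusted threshold, with 5 to the right and 4 to the left, and blue points are named genes that missed it.

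Rbm3 encodes an RNA-binding protein whose RNA rises with mild cold and which helps translation. The gene lies on chromosome X (GRCm38, chrX:8138975-8145880, minus strand, ENSMUSG00000031167.16). Its level was 188, 183, 155 and 134 CPM in female_CKD 1 to 4 and 98.0, 70.2, 74.2 and 76.1 CPM in female_control 1 to 4. The lowest CKD library was above the highest control library, and female_CKD 1 and 2 were the highest. Means were 165 ± 25.2 (SD, n = 4) against 79.6 ± 12.5 CPM, a log2 fold change of 1.04 ± 0.11 (SE; edgeR adjusted p = 0.0266). Rbm3-ps (chr1:150265535-150265999, minus strand) was at 49.6, 42.4, 34.1 and 32.6 CPM in CKD and 21.6, 14.8, 15.8 and 17.0 CPM in control. The order of libraries was the same as for Rbm3 within CKD. Of the pseudogene's 50-base words, 87.7% also occur in other genes, mainly Rbm3, so its counts cannot be separated from those of Rbm3 with certainty. It stands outside the naming rule, which leaves out pseudogenes, and is named because the count is small. Its log2 fold change was 1.18 ± 0.14 (edgeR adjusted p = 0.0266).

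Cirbp, the other cold-inducible gene on the list of 2, was at 95.7, 106, 72.2 and 117 CPM in CKD and 48.3, 47.8, 56.7 and 48.2 CPM in control. All 4 CKD libraries were above all 4 controls, and female_CKD 3 was closest to them. The log2 difference was 0.96 ± 0.14 and missed the threshold (edgeR adjusted p = 0.0656). It passed with upper-quartile scaling (adjusted p = 0.0339), when mitochondrially encoded genes were left out (0.0432) and without female_CKD 3 (0.0157). It also passed with DESeq2, with limma-voom, with no filter on low counts, with GC and length trends removed and the factor kept, and without female_control 2, and missed the threshold under the other settings run. The median of both genes was 1.0, and 0.98 without female_control 2.

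Tfdp2 encodes DP2, the partner with which E2F transcription factors bind DNA. The gene is on chromosome 9 (chr9:96196275-96323646, plus strand, ENSMUSG00000032411.15). CKD libraries held 236, 251, 200 and 211 CPM and controls 112, 148, 126 and 114 CPM. The lowest CKD value was well above the highest control value. The log2 fold change was 0.84 ± 0.10 (edgeR adjusted p = 0.0266). Among 20 tested cell cycle and replication genes, 6 estimates were positive and 14 negative, none passed the adjusted threshold, and the median was -0.23 (-0.07 without female_control 2). Ccnd1, the G1 cyclin, was at 24.6 ± 7.44 CPM in CKD and 42.8 ± 7.84 CPM in control (SD, n = 4), with overlap through female_CKD 4. The replication licensing gene Mcm3 stood at 4.65 ± 1.26 against 6.22 ± 1.01 CPM.

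Fmo2 encodes a flavin monooxygenase that oxidises foreign compounds at nitrogen and sulfur atoms. The gene is on chromosome 1 (chr1:162874317-162898726, minus strand, ENSMUSG00000040170.13). Its level was 132, 132, 124 and 111 CPM in CKD and 58.2, 63.9, 48.1 and 72.3 CPM in control. All CKD libraries were higher, and the spread within each arm was small beside the distance between them. The log2 fold change was 1.04 ± 0.12 (edgeR adjusted p = 0.0266). The family list had 3 tested members, of which Fmo2 was the only one past the threshold. Of 28 targets of the antioxidant regulator NRF2, 16 estimates were positive and 12 negative, 0 passed, and the median was 0.07 (0.14 without female_control 2). The quinone reductase Nqo1 came nearest, at 120, 129, 106 and 101 CPM in CKD and 82.1, 66.0, 76.5 and 76.3 CPM in control, without overlap. Its log2 difference was 0.60 ± 0.10 (edgeR adjusted p = 0.0762). Gsta3, a glutathione transferase, was at 13.3 ± 1.85 against 9.73 ± 1.87 CPM, with overlap. Nqo1 is also on the aryl hydrocarbon receptor list, where all 7 tested members had positive estimates, 0 passed, and the median was 0.23 (0.40 without female_control 2). That list's median was -0.05 within libraries 3 to 6 and 0.37 within the other 4.

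Aqp4 encodes a water channel of the plasma membrane, in heart a protein of cardiomyocytes. The gene is on chromosome 18 (ENSMUSG00000024411.9, minus strand). CKD libraries held 41.4, 31.6, 38.0 and 31.9 CPM and controls 18.3, 21.6, 15.3 and 18.0 CPM. No control reached the lowest CKD library. The log2 fold change was 0.97 ± 0.13 (edgeR adjusted p = 0.0441), the closest to the threshold among the 9.

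**Figure D2:**
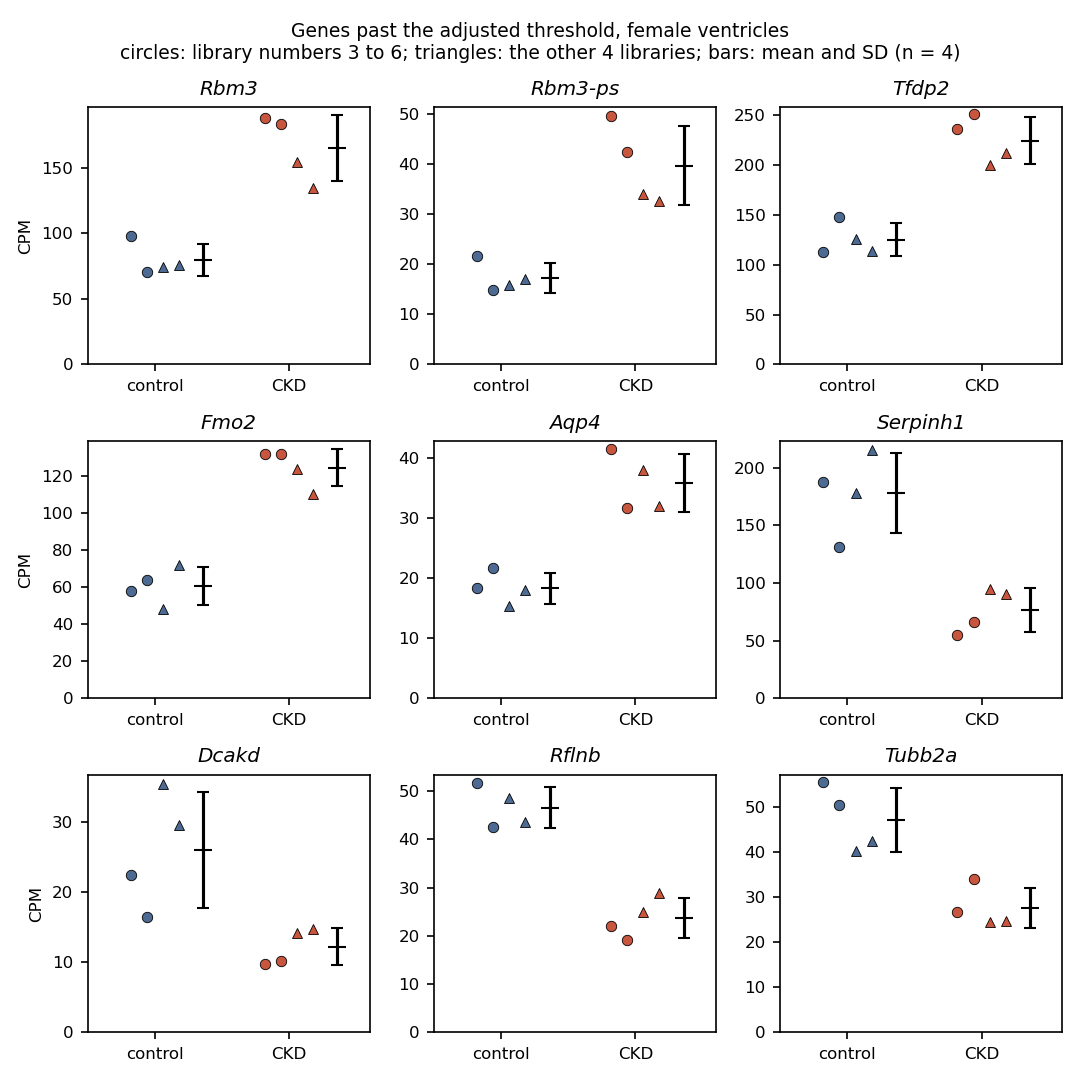
CPM (y axis, from 0) of the 9 genes past the adjusted threshold in the 4 control and 4 CKD female libraries; circles are library numbers 3 to 6, triangles the other 4, and bars the mean and SD (n = 4). In every panel the CKD points and the control points do not overlap, from Rbm3 (134 to 188 against 70.2 to 98.0) to Tubb2a (24.6 to 34.0 against 40.2 to 55.5).

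Serpinh1 encodes HSP47, the chaperone that binds folded procollagen in the endoplasmic reticulum and is needed for its secretion, and it is itself a heat shock gene. It lies on chromosome 7 (chr7:99345376-99353239, minus strand, ENSMUSG00000070436.12). Its level was 55.3, 65.9, 94.9 and 90.9 CPM in CKD and 187, 131, 178 and 215 CPM in control. All CKD libraries were lower, including beside female_control 2, the lowest control. Means were 76.8 ± 19.2 against 178 ± 35.0 CPM (SD, n = 4), a log2 fold change of -1.24 ± 0.13 (edgeR adjusted p = 0.0266).

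Among 22 tested collagen-modifying enzymes and chaperones, 20 estimates were negative and 2 positive, with a median of -0.38 against -0.05 over all genes, and -0.46 without female_control 2. Serpinh1 alone passed the adjusted threshold, and 10 of the 22 were lower at an unadjusted p under 0.05, where the background is 12.3% of genes. P4ha1, a catalytic subunit of collagen prolyl 4-hydroxylase, was at 28.4, 35.0, 35.4 and 28.2 CPM in CKD and 55.1, 59.5, 54.0 and 78.1 CPM in control. The arms did not overlap. The log2 difference was -0.95 ± 0.14 and missed the threshold (edgeR adjusted p = 0.0656).

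The 19 tested collagen genes all had negative estimates, with a median of -0.79 (-0.95 without female_control 2). Of these 14 were lower at an unadjusted p under 0.05, where the background is 12.3% of genes. None passed the adjusted threshold, and the arms overlapped in all 19. Col6a3, a chain of beaded-filament collagen VI, was at 6.28, 7.54, 8.88 and 20.4 CPM in CKD and 17.6, 9.01, 39.1 and 43.7 CPM in control. Col1a1, the main chain of fibrillar collagen I, was at 8.29, 7.64, 11.9 and 36.4 CPM in CKD and 15.9, 5.03, 60.9 and 74.0 CPM in control. Its lowest value was in control library female_control 2 and its highest CKD value in female_CKD 4, so both arms spanned a wide range. The log2 difference of Col1a1 was -1.01 ± 0.42 (edgeR unadjusted p = 0.0368, adjusted p = 0.242). Col5a2, a chain of fibril-regulating collagen V, was at 12.2 ± 7.01 against 22.8 ± 11.1 CPM (SD, n = 4).

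Within libraries 3 to 6 the median over the collagens was -0.51 on the log2 CPM scale, and within the other 4 libraries it was -1.12. The 30 tested genes of non-collagen matrix and remodelling had 23 negative and 7 positive estimates, 0 past the adjusted threshold, and a median of -0.44. Thbs2, a matricellular thrombospondin, lay in the other direction, at 62.9, 51.9, 47.6 and 60.9 CPM in CKD against 39.8, 45.7, 28.9 and 29.1 CPM in control, without overlap. Vcan, a large matrix proteoglycan, was at 17.9 ± 3.54 CPM in CKD and 28.4 ± 0.757 CPM in control. Postn, a matricellular protein of activated fibroblasts, was at 33.6 ± 17.5 against 47.3 ± 11.7 CPM, with overlap.

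Fibroblast markers were measured beside these genes. The 11 markers summed to 1434 to 2296 CPM in CKD and 1980 to 2189 CPM in control; female_CKD 1 to 3 were at 1434 to 1514 CPM and female_CKD 4 at 2296 CPM. Of the 11, 10 had negative estimates and 7 were lower at an unadjusted p under 0.05, where the background is 12.3% of genes. None of the 11 was at 0. Col1a1, Col1a2, Dcn, Lum, Mfap5 and Pcolce belong both to this list and to the matrix lists. In bulk RNA, fewer cells of a type and less RNA per cell cannot be told apart, and the part of fibroblast number in these results was not tested.

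Among 21 heat shock chaperones, 19 estimates were negative and 2 positive, with a median of -0.24 (-0.25 without female_control 2). None passed the adjusted threshold, 10 were lower at an unadjusted p under 0.05, and in 8 of the 21 all CKD libraries lay below all controls, where the background is 3.95% of genes. Hspb1, a small chaperone that holds unfolded proteins, was at 69.4, 95.4, 90.4 and 96.6 CPM in CKD and 127, 121, 123 and 136 CPM in control. Hsph1, the HSP110 nucleotide exchange factor of HSP70, was at 30.6, 35.7, 30.3 and 31.6 CPM in CKD and 49.5, 61.2, 66.7 and 131 CPM in control. The CKD libraries of Hsph1 were close together and the control spread came mainly from female_control 4. The log2 differences were -0.53 ± 0.10 for Hspb1 and -1.21 ± 0.24 for Hsph1, each with an edgeR adjusted p of 0.102. The list's median was -0.08 within libraries 3 to 6 and -0.44 within the other 4. Of 20 endoplasmic reticulum stress genes, 10 estimates were positive and 10 negative, and the median was 0.01 (0.09 without female_control 2). Hyou1, the chaperone of that compartment related to Hsph1, was at 33.0 ± 6.45 against 49.5 ± 8.07 CPM.

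The promoters of Serpinh1 and of both chaperone genes are shown because heat shock factor binds inverted repeats of units that hold GAA. GAANNTTC and TTCNNGAA are each a pair of such units. The promoters of P4ha1 and Egln3 are shown because hypoxia-inducible factor binds ACGTG and GCGTG. Each promoter shown is the 250 bases upstream of a start site in RefSeq GRCm38.p6, 5′ to 3′ on the gene's strand. Capitals mark matches to these 4 motifs on either strand, so that CACGT is ACGTG on the other strand. Positions are Serpinh1 chr7:99353240-99353489 (minus), Hspb1 chr5:135887669-135887918 (plus), Hsph1 chr5:149636337-149636586 (minus), P4ha1 chr10:59323046-59323295 (plus) and Egln3 chr12:54203875-54204124 (minus).
Serpinh1: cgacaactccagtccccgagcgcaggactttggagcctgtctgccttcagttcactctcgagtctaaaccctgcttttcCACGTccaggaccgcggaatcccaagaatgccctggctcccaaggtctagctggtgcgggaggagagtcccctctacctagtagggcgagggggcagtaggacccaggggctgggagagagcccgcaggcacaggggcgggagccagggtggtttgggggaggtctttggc
Hspb1: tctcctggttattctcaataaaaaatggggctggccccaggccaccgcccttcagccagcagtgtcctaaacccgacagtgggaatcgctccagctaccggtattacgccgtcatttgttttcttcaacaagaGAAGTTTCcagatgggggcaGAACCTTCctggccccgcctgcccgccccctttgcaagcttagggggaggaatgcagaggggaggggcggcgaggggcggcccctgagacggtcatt
Hsph1: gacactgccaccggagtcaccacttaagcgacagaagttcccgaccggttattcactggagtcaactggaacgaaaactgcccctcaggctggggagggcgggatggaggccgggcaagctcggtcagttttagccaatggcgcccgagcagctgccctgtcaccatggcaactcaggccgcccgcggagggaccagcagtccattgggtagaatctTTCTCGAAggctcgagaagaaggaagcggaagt
P4ha1: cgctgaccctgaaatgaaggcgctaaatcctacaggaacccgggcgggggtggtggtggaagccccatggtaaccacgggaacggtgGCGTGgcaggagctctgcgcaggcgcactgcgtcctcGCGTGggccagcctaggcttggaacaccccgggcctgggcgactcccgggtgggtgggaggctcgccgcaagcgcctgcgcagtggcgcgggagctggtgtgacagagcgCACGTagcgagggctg
Egln3: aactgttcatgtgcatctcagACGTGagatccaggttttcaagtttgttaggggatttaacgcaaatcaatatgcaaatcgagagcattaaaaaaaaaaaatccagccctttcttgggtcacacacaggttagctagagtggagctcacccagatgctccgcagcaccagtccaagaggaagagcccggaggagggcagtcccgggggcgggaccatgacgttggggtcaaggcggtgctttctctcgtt

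GAANNTTC occurred in 6.69% and TTCNNGAA in 7.17% of all 32851 promoters of the same length, ACGTG in 16.6% and GCGTG in 28.2%. Hspb1 held GAANNTTC at 2 places and Hsph1 held TTCNNGAA at 1, while this window of Serpinh1 held ACGTG only. P4ha1 held 3 hypoxia-type matches, Egln3 held 1. Over the heat shock list, 9 of 17 members with a promoter in the table held either heat shock motif, against 14.5% of all genes. Over the hypoxia list, 14 of 15 held either hypoxia motif, against 41.5% of all genes. These matches describe letters in the windows and say nothing about which factor was bound.

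Of 17 hypoxia targets, 10 estimates were negative and 7 positive, 0 passed, and the median was -0.03, close to that of all genes (0.02 without female_control 2). Members differed widely. Egln3, the oxygen-sensing prolyl hydroxylase that marks hypoxia-inducible factor for degradation and is itself induced by it, was at 34.0, 37.9, 40.8 and 54.5 CPM in CKD and 167, 114, 82.7 and 107 CPM in control. All CKD libraries were lower, and the control spread was wide. The log2 difference was -1.48 ± 0.22 (edgeR adjusted p = 0.0656), and in the fit to all 16 libraries it passed, at -1.43 with adjusted p = 0.0444. In 4 of the 17 the arms did not overlap, all lower, where the background is 3.95% of genes.

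Apelin and its receptor form a peptide system of vessels and myocytes, and apelin is a hypoxia target. Apln was at 4.85, 2.55, 4.84 and 6.94 CPM in CKD and 13.8, 8.74, 11.6 and 17.1 CPM in control, without overlap. Its log2 difference was -1.43 ± 0.25 (edgeR adjusted p = 0.0805). Aplnr was at 6.95, 10.2, 16 and 38.1 CPM in CKD and 35.8, 29.6, 41.6 and 33.9 CPM in control, where female_CKD 4 lay among the controls.

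**Figure D3:**
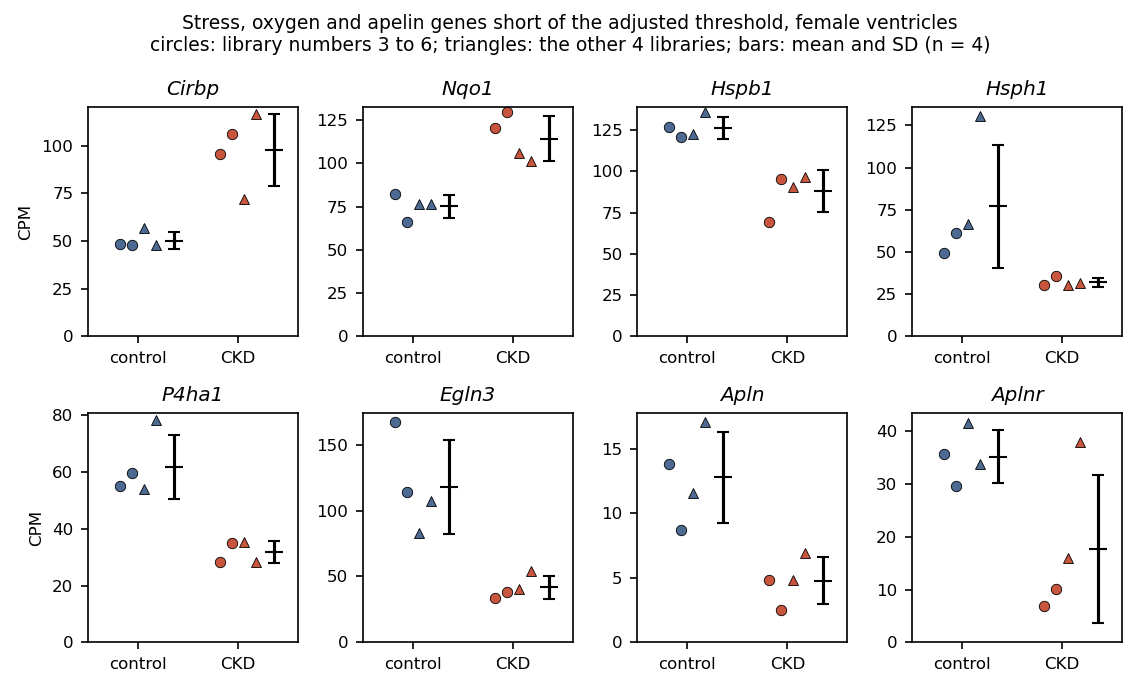
CPM (y axis, from 0) of 8 genes that missed the adjusted threshold in female control and CKD libraries, with symbols as in the plot of called genes and bars for the mean and SD (n = 4). Cirbp and Nqo1 are higher in all 4 CKD libraries, Hspb1, Hsph1, P4ha1, Egln3 and Apln are lower in all 4, and Aplnr overlaps through the CKD library at 38.1 CPM.

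Of 22 VEGF and endothelial signalling genes, 20 estimates were negative and 2 positive, with a median of -0.40 (-0.52 without female_control 2) and 0 past the threshold. Nrp2, a co-receptor for VEGF and semaphorins, was at 17.8, 14, 22.4 and 37.2 CPM in CKD and 41.1, 30.2, 58.6 and 56.1 CPM in control. Angpt2, the Tie2 ligand that destabilises vessels, was at 3.56 ± 0.684 CPM in CKD and 7.37 ± 1.61 CPM in control, without overlap. The 12 endothelial markers summed to 1238 to 2004 CPM in CKD and 1544 to 1864 CPM in control, with 10 of 12 estimates negative and none at 0; their part in these values was not tested. The 11 pericyte and smooth muscle markers summed to 1343 to 1670 against 1553 to 1775 CPM, with 8 of 11 estimates negative.

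Of 31 interferon-response genes, 29 estimates were negative and 2 positive, with a median of -0.41 (-0.29 without female_control 2). None passed the adjusted threshold, and 19 were lower at an unadjusted p under 0.05, where the background is 12.3% of genes. In 7 the arms did not overlap, all lower, where the background is 3.95%. Oas2, an enzyme that senses double-stranded RNA, was at 7.12, 8.42, 9.89 and 8.22 CPM in CKD and 10.3, 19.4, 15.9 and 17.2 CPM in control, without overlap. Ifi44 was at 1.09, 1.57, 3.83 and 4.93 CPM in CKD and 1.95, 3.36, 9.51 and 9.58 CPM in control. Its values were lower in libraries 3 to 6 than in the other 4 in both arms, so the arms overlapped while CKD was lower within each set. The 10 class II presentation genes all had negative estimates (median -0.46), and of 18 class I genes 16 did (median -0.28). H2-DMa, which loads peptide onto class II molecules, was at 1.6 ± 0.306 against 2.92 ± 0.334 CPM, without overlap. Mr1, a class I-like molecule that presents vitamin B metabolites, stood apart from the class I list at 39.3 ± 4.20 against 25.5 ± 2.93 CPM, higher in all 4 CKD libraries. The 11 macrophage markers summed to 237.5 to 318.8 CPM in CKD and 244.1 to 299.6 CPM in control, with 10 of 11 estimates negative; their part was not tested.

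Rflnb encodes refilin B, a filamin partner that organises actin bundles. The gene is on chromosome 11 (chr11:76019194-76027782, minus strand, ENSMUSG00000020846.6). It was at 22.1, 19.1, 24.9 and 28.9 CPM in CKD and 51.7, 42.5, 48.5 and 43.7 CPM in control. The arms were far apart beside the spread in each. The log2 fold change was -0.98 ± 0.13 (edgeR adjusted p = 0.0352). In the list of refilins, filamins and actin-binding proteins, 12 of 13 estimates were negative, only Rflnb passed, and the median was -0.38 (-0.54 without female_control 2).

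Tubb2a encodes a beta-tubulin of microtubules (chr13:34074274-34078007, minus strand, ENSMUSG00000058672.7). It was at 26.8, 34.0, 24.6 and 24.8 CPM in CKD and 55.5, 50.4, 40.2 and 42.6 CPM in control. The highest CKD library remained below the lowest control. The log2 fold change was -0.77 ± 0.10 (edgeR adjusted p = 0.0352). Of its 50-base words 49.6% occur in other genes, mainly Tubb2b, so reads of the 2 genes may not be told apart. With RLE scaling Tubb2a was the 1 gene of the 9 that was not called.

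Dcakd encodes a protein with a dephospho-coenzyme A kinase domain. The gene is on chromosome 11 (chr11:102994047-103028333, minus strand, ENSMUSG00000020935.8), and 5.63% of its exon bases lie under exons of the opposite strand. It was at 9.71, 10.2, 14.2 and 14.8 CPM in CKD and 22.4, 16.4, 35.4 and 29.5 CPM in control. Both arms were lower in libraries 3 to 6 than in the other 4, and the arms still did not overlap. The log2 fold change was -1.07 ± 0.13 (edgeR adjusted p = 0.0345). Of 10 tested genes of coenzyme A synthesis and turnover, 8 had negative estimates, only Dcakd passed, and the median was -0.04.

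The genes just outside the threshold had adjusted p-values from 0.0644. Lower without overlap were Rps6ka2 (a kinase of the RSK family), Rinl (a Rab5 exchange factor), the cytoplasmic actin gene Actg1 and the phosphatase gene Dusp3. Rinl was scarce, at 1.26, 0.979, 1.23 and 1.28 CPM in CKD and 4.49, 2.56, 3.55 and 3.39 CPM in control, with a log2 difference of -1.55 ± 0.24. Actg1 was at 199 ± 22 against 296 ± 17.7 CPM, and 37.4% of its 50-base words occur in other genes. Dusp3 was at 87.2 ± 2.81 against 121 ± 6.41 CPM, and Rps6ka2 at 27.1 ± 4.50 against 45.9 ± 12 CPM. Of the 50-base words of Rps6ka2, 19.4% occur in other genes, and 12.9% of the exon bases of Dusp3 lie under exons of the opposite strand.

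Higher without overlap, and also short of the threshold, were the chromatin remodeller gene Chd6, the thioredoxin-like gene Tmx1, the M-band gene Myom2 and the ER-phagy receptor gene Retreg1. Myom2, which crosslinks thick filaments, was at 2323, 2882, 1916 and 2058 CPM in CKD and 1606, 1890, 1148 and 1357 CPM in control. Retreg1 was at 591 ± 43.2 against 357 ± 55.9 CPM, Chd6 at 228 ± 41.3 against 141 ± 25.9 CPM and Tmx1 at 187 ± 20.4 against 118 ± 10.2 CPM. The log2 differences of these 4 lay between 0.62 and 0.73. Beside Myom2, 13 of 19 adult sarcomere genes had positive estimates, with a median of 0.11 and 0 past the threshold. The median of that list was 0.20 within libraries 3 to 6 and 0.00 within the other 4. Myoz2, a Z-disc protein that binds calcineurin, was higher in all 4 CKD libraries, at 1185 ± 162 against 941 ± 64.2 CPM.

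The genes of impulse formation, conduction and calcium handling named here all missed the adjusted threshold. Kcnip2, the auxiliary subunit of the fast transient outward potassium current, was at 65.5, 77.6, 117 and 121 CPM in CKD and 129, 82.8, 143 and 156 CPM in control. CKD was lower within each library set, and the arms overlapped; the log2 difference was -0.45 ± 0.13 (edgeR unadjusted p = 0.0077, adjusted p = 0.15). Kcnd2, a pore subunit of that current, stood at 28.0 ± 3.77 against 29.1 ± 4.68 CPM. Ryr2, the calcium release channel, was at 1553, 1737, 1513 and 1749 CPM in CKD and 1850, 2078, 2025 and 1729 CPM in control, a log2 difference of -0.23 ± 0.09 (edgeR adjusted p = 0.215).

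The other panel genes of excitation gave log2 differences of 0.20 ± 0.10 for the inward rectifier Kcnj2, -0.31 ± 0.20 for Kcnq1, -0.27 ± 0.15 for the L-type channel Cacna1c and -0.15 ± 0.48 for the pacemaker channel Hcn4. Connexin 43 (Gja1) differed by 0.09 ± 0.12, the calcium pump Atp2a2 by -0.10 ± 0.13, its inhibitor Pln by 0.13 ± 0.09 and the exchanger Slc8a1 by 0.15 ± 0.21. Over the lists, 14 of 23 potassium channel estimates were negative (median -0.14), 15 of 21 of calcium release and removal (median -0.07), 6 of 10 of the sodium channel complex (median -0.02) and 4 of 9 of the calcium channels (median 0.00). Without female_control 2, the last 3 medians were -0.02, -0.15 and -0.15. The sodium channel list had a median of 0.27 within libraries 3 to 6 and -0.40 within the other 4. For the potassium channels these medians were 0.003 and -0.33, and for the calcium channels 0.01 and -0.24. Of 17 adrenergic and cAMP signalling genes, 15 estimates were negative, with a median of -0.31 (-0.21 without female_control 2). That list's median was -0.12 within libraries 3 to 6 and -0.16 within the other 4. Pde3a, a phosphodiesterase that degrades cAMP, was at 108, 125, 131 and 129 CPM in CKD and 152, 170, 145 and 143 CPM in control, without overlap.

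Hypertrophy genes were mixed. Nppa differed by -0.32 ± 0.26, Nppb by 0.14 ± 0.30, Myh7 by 0.15 ± 0.16 and Acta1 by -1.05 ± 0.47 log2 units, and all 4 overlapped. Ankrd1, a stretch-responsive titin-binding protein, was at 1199, 2768, 1467 and 1424 CPM in CKD and 558.5, 1140, 907 and 960 CPM in control. All CKD libraries were higher, female_CKD 2 most of all, with a log2 difference of 0.93 ± 0.28 (edgeR adjusted p = 0.152). The 7 atrial markers, which include Nppa, summed to 280 to 409 CPM in CKD and 286 to 846 CPM in control, with all 7 estimates negative; their part in the Nppa value was not tested.

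**Figure D4:**
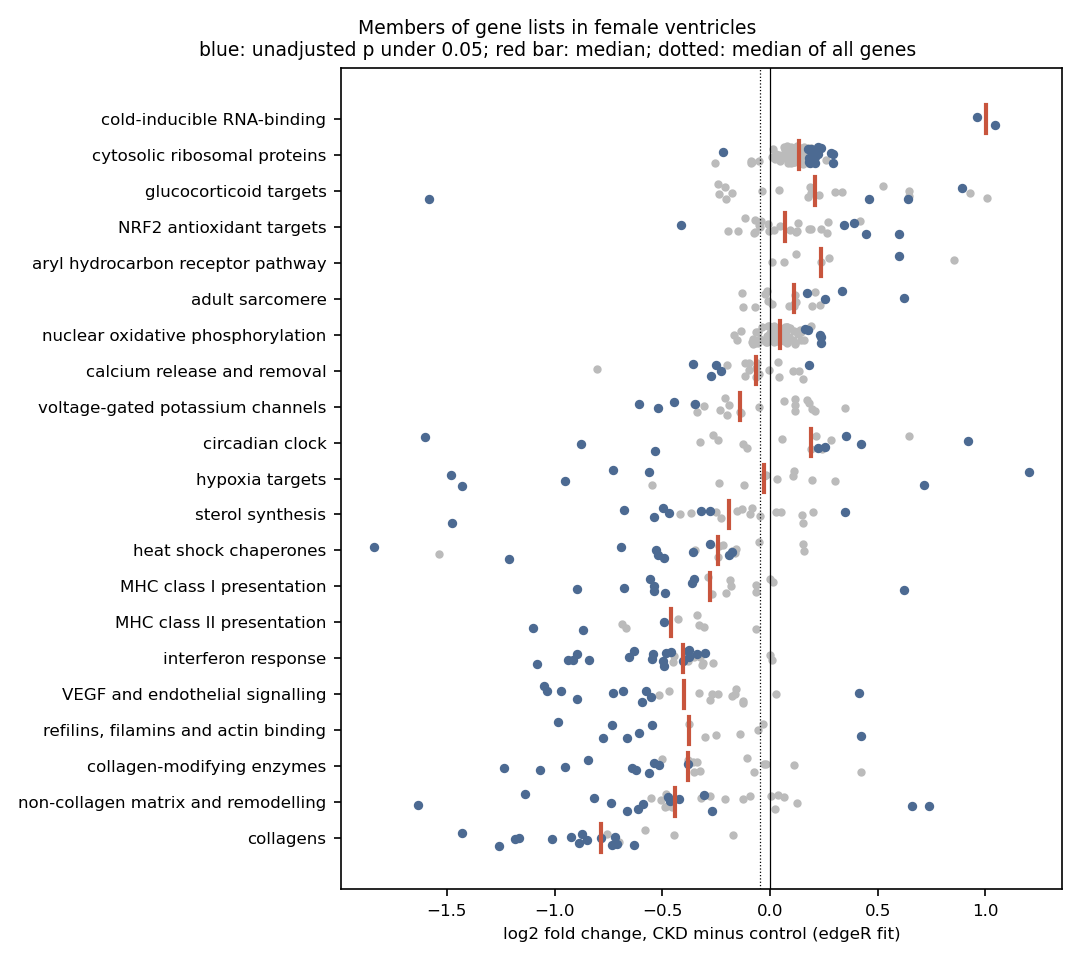
Log2 fold changes (x axis, edgeR fit) of the tested members of 21 gene lists (rows) in female CKD against control; each point is a gene, blue where the unadjusted p is under 0.05, and red bars are list medians. The collagen row lies wholly to the left of 0 with its median at -0.79, and the ribosomal protein row mostly to the right with a median of 0.13.

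Small positive estimates were common in some lists of translation, respiration and protein turnover and not in others. Of 85 cytosolic ribosomal protein genes, a list whose name pattern also took in 2 paralogs, 79 were positive, with a median of 0.13 and a range of -0.26 to 0.29, and 0 passed. Rps4x, a small-subunit protein encoded on the X, was at 474 ± 20.6 against 407 ± 25.5 CPM, without overlap. Of 79 nuclear oxidative phosphorylation genes 60 were positive (median 0.05, or 0.08 without female_control 2), and of 38 proteasome subunits 28 were (median 0.06, or 0.11). Within libraries 3 to 6 the oxidative phosphorylation median was 0.13, and within the other 4 it was -0.03. The proteasome median was 0.14 within libraries 3 to 6 and 0.0015 within the other 4. Of 77 mitochondrial ribosomal protein genes, 28 were positive and 49 negative (median -0.03, or 0.02 without female_control 2), and of 13 mitochondrially encoded genes 7 were positive and 6 negative (median 0.00, or 0.04). Of 34 genes of fatty acid oxidation 25 were positive (median 0.10). Acadm, the medium-chain acyl-CoA dehydrogenase, was at 1598 ± 154 against 1378 ± 76.1 CPM, while the short-chain enzyme Acads was at 107 ± 35.8 against 156 ± 49.7 CPM, and both overlapped.

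Of 22 sterol synthesis genes, 16 estimates were negative (median -0.19, or -0.11 without female_control 2). In glucose use, Hk2, the insulin-responsive hexokinase, was at 220 ± 20.7 against 299 ± 35.4 CPM without overlap, and the 26 genes of that list had a median of -0.06 (-0.01 without female_control 2). Xdh, which oxidises purines to uric acid and acts on adenine itself, was at 138, 128, 140 and 138 CPM in CKD and 90.3, 99.9, 115 and 88.6 CPM in control. Its CKD libraries were nearly equal and all higher, with a log2 difference of 0.47 ± 0.09 (edgeR adjusted p = 0.102).

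Of 22 glucocorticoid targets, 15 estimates were positive, with a median of 0.21 and 0 past the threshold. Fkbp5, a co-chaperone induced by the receptor, was at 49.1, 45.2, 36.2 and 88.4 CPM in CKD and 27.5, 37.4, 20.8 and 31.7 CPM in control. The list median was 0.49 within libraries 3 to 6 and -0.03 within the other 4. Of 19 clock genes, 11 were positive and 8 negative. Arntl, the core activator of the clock, was at 4.52, 4.70, 3.25 and 2.37 CPM in CKD and 15.8, 24.8, 8.91 and 1.80 CPM in control, so that female_control 4 lay below every CKD library and the other controls above. The sources do not give the time of day of tissue collection.

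The 21 leading genes (the 9 called and the 12 that filled the naming rule) were also compared within each set of female libraries and in males. Within libraries 3 to 6 and within the other 4, each 2 CKD against 2 controls, all 21 differed in the same direction, a direction that the choice of these genes in part fixes. Rbm3 differed by 1.16 and 0.94 log2 units in the 2 sets, Serpinh1 by -1.37 and -1.07, and Egln3 by -1.94 and -1.0. In males, fitted with females in a model of all 16 libraries with the same factor, all 21 had the same sign and 14 an unadjusted p under 0.05, where the background is 8.05% of genes in either direction, while 0 passed the adjusted threshold; over all genes 1 of 16400 passed in males (0.0061%). Male log2 fold changes were 0.71 ± 0.12 for Rbm3, -0.78 ± 0.15 for Rflnb, -0.75 ± 0.18 for Dcakd, 0.65 ± 0.23 for Fmo2 and 0.43 ± 0.23 for Tfdp2. They were -0.42 ± 0.16 for Serpinh1, -0.33 ± 0.15 for Tubb2a and 0.24 ± 0.28 for Aqp4.

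All 21 estimates were larger in females, which is the sex in which the genes were chosen. The test of the difference itself, female minus male effect, passed for 0 of 16400 genes (0%; lowest adjusted p 0.99994; 304 genes, 1.85%, at an unadjusted p under 0.05). The difference was -0.77 ± 0.23 for Serpinh1 (edgeR unadjusted p = 0.00393), -0.92 ± 0.34 for Egln3 and 0.39 ± 0.17 for Rbm3, the 3 of the 21 with an unadjusted p under 0.05. It was 0.78 ± 0.39 for Aqp4, -0.15 ± 0.22 for Rflnb and -0.26 ± 0.25 for Dcakd. In the female contrast of that 16-library fit 9 genes passed (0.0549%), of which Rbm3, Rbm3-ps, Serpinh1 and Rflnb are among the 9 of the female fit. Dcakd (edgeR adjusted p = 0.0577), Tubb2a (0.137), Fmo2 (0.156), Tfdp2 (0.254) and Aqp4 (0.257) missed the threshold there. Collagens had a median of -0.78 in males, interferon-response genes -0.44, heat shock chaperones -0.11 and class II genes -1.20.

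**Figure D5:**
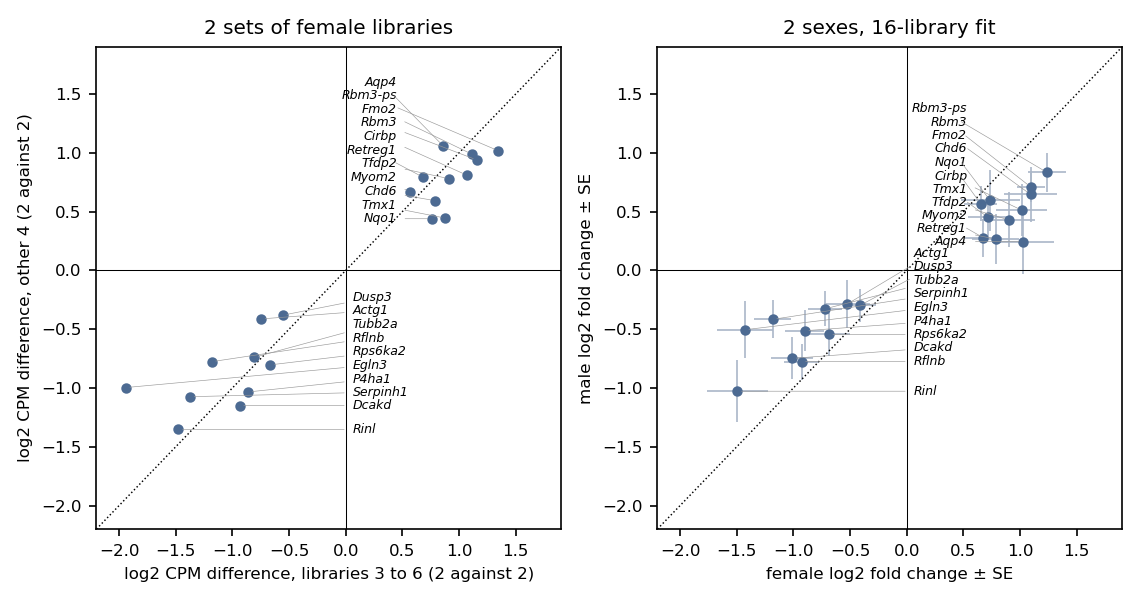
Left, log2 CPM differences of the 21 leading genes in libraries 3 to 6 (x axis) and in the other 4 female libraries (y axis); right, female (x axis) and male (y axis) log2 fold changes with SE bars from the 16-library fit. All 21 points lie in the quadrants of equal sign in both panels, and in the right panel all lie nearer to 0 on the male axis, Serpinh1 at -0.42 against -1.18 in females.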

How the data were processed

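Bulk RNA of mouse ventricles (Qiagen RNeasy Plus Mini) was sequenced as 50 bp paired-end reads, per the labels' protocols. The authors deposited raw counts per gene, not normalized. The submitters' processing notes name STAR 2.6.1d, featureCounts (Subread 1.6.3), DESeq2 1.30.1, FastQC, MultiQC and mm10; annotation release, strand setting and handling of multi-mapped reads: not given in the sources used here, so reads of near-identical copies and of opposite strands cannot be separated with certainty. Of 33399 gene identifiers, 33367 matched GENCODE M21 (GRCm38).

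From the counts, 15648 genes were kept by filterByExpr (minimum count 10, minimum total 15; at least 99.75% of the counts of each library), scaled by TMM and fitted with edgeR 4.0.16 (R 4.3.3) with arm and a factor for library numbers 3 to 6, on the 8 female libraries. The quasi-likelihood F test is two-sided, with Benjamini-Hochberg adjustment and a threshold of 0.05. The spread between libraries (common biological coefficient of variation 0.155) set a median SE of 0.153 for log2 fold changes. CPM values are means ± SD (n = 4). The sexes were compared in a 16-library fit. Counts of replicates differed by more than counting noise (chi-square per degree of freedom 9.24 to 45.9), so all were counted singly; whether replicates come from separate animals was not tested.

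The gene lists (52), the marker lists (21) and the comparison were chosen with earlier results of these data known. Named were genes that passed and averaged 1 log2 CPM or more, without predicted genes, clones and pseudogenes, filled to 10 per direction by lowest p, then up to 3 members past the threshold or 2 of lowest p per list, and a fixed panel; some of these genes are not reported here. Alternatives included DESeq2 1.42.0, limma-voom (limma 3.58.1), other scalings and filters, other factors, library subsets and each library left out. The script was tested on simulated counts.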

Additional observations from a re-analysis of the deposited data

Results flagged for a closer look

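Among 254 groups of 4 libraries tested (each named gene and library measure in each arm), 13 had 1 library whose distance to the nearest of the others exceeded Dixon's 95% critical share of the group's range; chance flags about 1 in 20 groups, here 12.7. Among the leading genes, Cirbp was at 56.7 CPM in female_control 3 (other controls 47.8 to 48.3), Chd6 at 179.7 CPM in female_control 1 (others 125.2 to 129.7) and Rinl at 0.979 CPM in female_CKD 2 (others 1.23 to 1.28).

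Library female_CKD 4 was the highest CKD library for the collagen gene Col1a1 (36.4 CPM, others 7.64 to 11.9), the matricellular gene Postn (59.6 CPM, others 23 to 28.5), H2-Q7 (28.4 CPM, others 14.4 to 16.2) and Ccnd1 (35.7 CPM, others 20.1 to 21.3). It also had the highest fibroblast marker sum of the 8 libraries (2296 CPM), and the part of that in these values was not tested. Library female_CKD 2 was the highest for the stretch gene Ankrd1 (2768 CPM, others 1199 to 1467) and the natriuretic peptide gene Nppb (333 CPM, others 112 to 138), and the lowest for Xdh (128 CPM, others 138 to 140). Hyou1 was at 42.5 CPM in female_CKD 3 (others 28.9 to 31.1).

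Library female_control 4 was the lowest control for the sodium channel subunit gene Scn3b (0.798 CPM, others 1.64 to 1.77) and the exchanger gene Slc8a1 (176 CPM, others 392 to 434).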

How the results depend on the processing

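No paired analysis was possible because the labels give no replicate numbers, and those used here follow record order; the block of 3 library strata stands in its place. The 5 higher and 4 lower genes became 165 and 242 with DESeq2, 50 and 120 with limma-voom and sample quality weights, and 331 and 750 with no filter on low counts. With upper-quartile scaling, and with mitochondrially encoded genes left out, 10 genes were higher. With a test against a 1.2-fold change, no factor for library numbers 3 to 6, 3 library strata, GC and length trends removed with no factor, only title code 6 or only library numbers 3 to 6, 0 genes passed in either direction. With those trends removed and the factor kept, a setting chosen after seeing the data, 24 genes were higher and 13 lower, all 9 among them. The other 4 libraries alone gave 1 higher and 0 lower. With 1 library left out, higher genes ranged from 0 to 53 and lower genes from 0 to 127, both highest without female_control 2. The cause was not tested. The test of the difference between sexes gave 0 genes in the 4 other settings it was run in and with each of the 16 libraries left out.

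Direction reversed in these named genes. Kcnd2 came to 0.0115 with limma-voom, 0.0026 with upper-quartile scaling, 0.0014 and 0.0022 with 16 libraries with and without the factor, and 0.0827 in the other 4. Hcn4 came to 0.00675 with DESeq2, 0.0939 and 0.15 with GC and length trends removed without and with the factor and 0.80 in libraries 3 to 6. Cacna2d2 came to 0.11 and Atp2a2 to 0.0343 in libraries 3 to 6, Irx3 to -0.0161 in the other 4 and mt-Nd6 to -0.0222 and -0.022 with GC and length trends removed without and with the factor. With 1 library left out, ranges that crossed 0 were -0.18 to 0.00873 for Atp2a2, -0.0222 to 0.23 for Gja1, -0.49 to 0.24 for Hcn4, -0.14 to 0.13 for Kcnd2, -0.0028 to 0.29 for Myh7, -0.13 to 0.39 for Nppb and -0.042 to 0.44 for Slc8a1. Over the other settings, 1816 values of named genes kept direction and side of the threshold, 167 passed it only there, 74 lost it and 14 reversed. Most named genes missed the threshold in the female fit, so keeping their side mostly means missing it again. Only the called genes could lose it, and they kept their calls in 7 (Tubb2a) to 10 (Rbm3 among others) of 17 other settings. Leaving out 1 library gave 887 values kept, 27 that passed only there, 52 lost and 10 reversed. Each called gene kept its call in 2 or 3 of those 8 runs.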

Other observations

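The genes in this paragraph were chosen after their values were seen. Tubb2a was followed by its relatives: of 16 tested tubulin genes and pseudogenes, Tubb2a included, 15 had negative estimates, with a median of -0.31. In 4 all CKD libraries were below all controls, where the background is 3.95% of genes. These 4 were Tubb2a itself, Tubb2b, Tubb4a and the pseudogene Tubb2a-ps2. The sequence that Tubb2a-ps2 shares with other genes was not measured. Tubb2b was at 12.6 CPM in CKD and 23.2 CPM in control, a log2 difference of -0.88 ± 0.14, and 36.9% of its 50-base words occur in other genes, mainly Tubb2a. Tubb4a was scarce, at 0.565 against 1.94 CPM, with a log2 difference of -1.78 ± 0.29. The abundant alpha-tubulin genes Tuba1b and Tuba1c differed by -0.10 each. The cytoplasmic actin gene Actb was at 178 against 254 CPM, a log2 difference of -0.51 ± 0.09 (edgeR adjusted p = 0.0792), next to -0.58 for Actg1. Besides Rbm3-ps, the Rbm3 pseudogenes Gm48583 and Gm10156 differed by 1.11 ± 0.16 and 1.12 ± 0.17, with sequence that reads of Rbm3 may share.

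The metal transporter gene Slc39a8 was higher in all 4 CKD libraries, at 8.93 ± 1.24 against 5.21 ± 1.03 CPM (SD, n = 4), and missed the adjusted threshold. The imprinted long non-coding RNA Rian was at 9.04, 4.90, 9.17 and 8.04 CPM in CKD and 13.8, 14.4, 13.9 and 15 CPM in control, lower in all 4 CKD libraries. Neat1, a nuclear paraspeckle RNA, was at 762 ± 53.0 against 625 ± 22.6 CPM, higher in all 4. Red cell markers, summed, ranged from 413 to 3809 CPM in CKD and from 1237 to 3127 CPM in control. In the other 4 female libraries alone, fitted as 2 against 2, the brown fat gene Ucp1 was called higher (log2 fold change 4.49, edgeR adjusted p = 0.0345), while the 8 adipocyte markers summed to 52.2 and 61.5 CPM in the CKD libraries of that set and 40.7 and 47.1 CPM in its controls, both CKD libraries being higher. Over all 8 libraries the sums were 42.4 to 61.5 CPM in CKD and 40.7 to 64.3 CPM in control, and the part of fat in the Ucp1 value was not tested.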
